A study of Glycine max with 16 samples.

Results

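Starch branching and debranching enzymes were followed through the day in leaves of field-grown soybean by the transcripts of 5 loci. The study classes Glyma.03G192300, Glyma.19G192800 and Glyma.08G196700 as starch branching enzyme loci and Glyma.03G151200 and Glyma.19G153700 as starch debranching loci, and the loci were taken by these identifiers from a read-count table of 56044 genes. All 5 loci passed the filter on low counts (at least 8 counts in any library), which 36059 of the 56044 genes passed. The study listed them among genes that it called diurnally differentially expressed in these same libraries, so the number of them that passed a test of time is not independent evidence for the class. The transcripts were measured in poly-A RNA of whole leaflets of soybean (Glycine max) cultivar 93B15, grown in the field in 2010 at the SoyFACE farm (Champaign, Illinois). For each sample, the leaflets of an uppermost, fully expanded leaf were frozen and combined, during reproductive development. The times of day were 8:00, which was ZT2:20 (zeitgeber time, the hours and minutes since dawn), 11:00 at ZT5:20, 14:00 at ZT8:20 and 17:00 at ZT11:20, with 4 plots at each time and 16 libraries in all. The labels name no treatment. Every plot was sampled at all 4 times within a day of its own, so plot and sampling day cannot be told apart, and a sample stands for a single leaf position of a single cultivar. All measured times lay in daylight, and the night was not sampled.

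Starch is a glucose polymer stored in the chloroplasts of leaves by day and broken down by night. Branching enzymes cut a linear glucan chain and rejoin the piece as a side branch, which makes amylopectin, the branched component of starch, and gives the synthases more chain ends to extend. Debranching enzymes hydrolyse such branch points. In Arabidopsis and cereals some debranching enzymes of the isoamylase type trim misplaced branches while starch is made, and others, with limit dextrinase, remove branches while starch is degraded. The sources held do not say which of these kinds each soybean debranching locus encodes.

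Reads assigned to genes ranged between 14968570 and 25691784 per library, with a median of 21411331. Transcript abundance is given in CPM, the reads of a gene over the library size with TMM scaling (the trimmed mean of M-values), and each error after a ± sign is the SD over 4 plots. CPM is not corrected for transcript length, so reads of different loci do not compare their transcript numbers. Loci are called abundant by their reads alone. Each time point was set against an earlier one with edgeR's quasi-likelihood test, with plot in the model, and p was adjusted over all 36059 genes (Benjamini-Hochberg). A gene was called where the adjusted p was under 0.05 and the log2 fold change was at least 1 in size. How the counting treated strand and overlapping genes is not stated in the sources held, so reads shared with antisense, overlapping or near-identical genes cannot be told apart from those of the loci named. In whole leaflets, fewer cells of a type and less RNA per cell cannot be told apart either. Scaling by library totals alone, instead of TMM, moved the median gene to a log2 fold change of 0.33 instead of 0.06 in 17:00 against 8:00 and to 0.20 instead of 0.01 in 14:00 against 8:00.

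The loci followed more than a single time course. Transcripts of Glyma.03G192300 and Glyma.19G192800, both of the branching class, were lowest on average at 8:00, between 2.03-fold and 2.62-fold higher at 11:00 and 14:00, and lower again at 17:00. Both debranching loci had their highest mean at 17:00. The third branching locus, Glyma.08G196700, gave few reads and had its highest mean at 17:00 as well. Over the 4 time points all 5 loci were called, against 33.8% of all genes tested. By the p-value of that test their ranks among 36059 genes were 3990 (Glyma.03G151200), 5250 (Glyma.03G192300), 8523 (Glyma.19G153700), 9062 (Glyma.19G192800) and 16978 (Glyma.08G196700). The time of the highest mean was 8:00 for 0 of the loci, 11:00 for 1, 14:00 for 1 and 17:00 for 3, where 33.5%, 14.1%, 18.4% and 34.0% of all genes tested had theirs. Among the genes called over the 4 time points these shares were 38.0%, 9.13%, 13.7% and 39.2%.

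**Figure D1:**
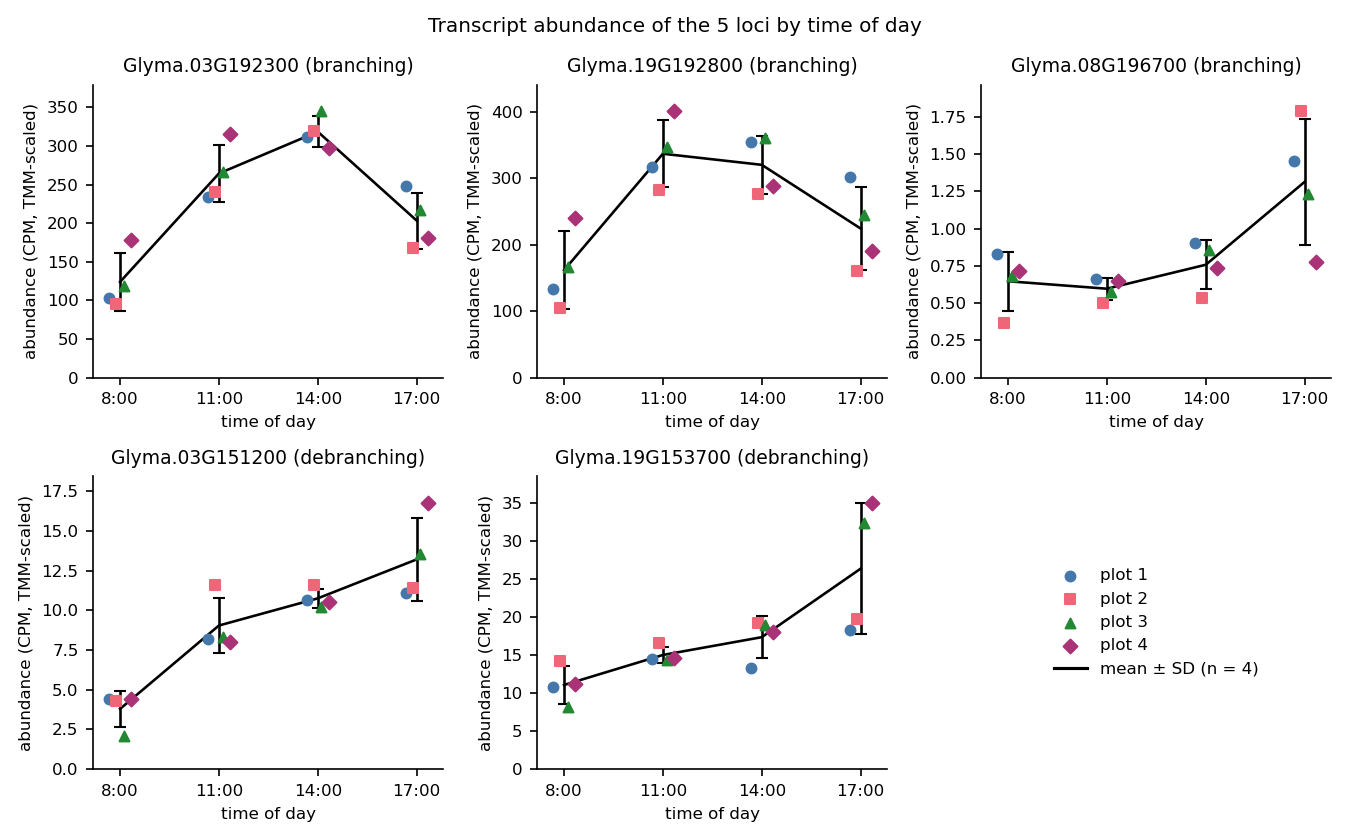
Transcript abundance (CPM, TMM-scaled, vertical axes starting at 0, each with its own scale) of the 5 loci against time of day. Symbols are the 4 plots, and the line and bars are the mean ± SD (n = 4). Glyma.03G192300 and Glyma.19G192800 were highest on average at 14:00 (318 CPM) and 11:00 (337 CPM), and the other loci at 17:00.

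Glyma.03G192300, a branching enzyme locus, had 103.3, 95.6, 118 and 178 CPM in plots 1 to 4 at 8:00, and 234, 241, 266 and 316 CPM at 11:00. At 14:00 it had 312, 319, 345 and 298 CPM, and at 17:00 248, 168, 217 and 181 CPM. The 11:00 and 14:00 libraries all lay above the 8:00 libraries, whereas those of 17:00 overlapped with 8:00, since plot 4 at 8:00 lay between plots 2 and 4 at 17:00. The mean was 124 ± 37.6 CPM at 8:00, 264 ± 37.0 CPM at 11:00, 318 ± 19.9 CPM at 14:00 and 203 ± 36.3 CPM at 17:00. The rise by 11:00 was 1.11 on the log2 scale (SE 0.18, 2.16-fold, adjusted p = 0.000572, edgeR), and 14:00 exceeded 8:00 by 1.39 (SE 0.18, 2.62-fold, adjusted p = 2.88e-05, edgeR). Both passed the fold threshold, and the direction was the same in 4 of 4 plots. At 17:00 the locus was still above its 8:00 level, by 0.74 (SE 0.18, adjusted p = 0.00319, edgeR), and was below its 14:00 level, with a log2 fold change of -0.65 (SE 0.18, 1.57-fold lower, adjusted p = 0.0245, edgeR). The 17:00 libraries lay below all the 14:00 libraries, in 4 of 4 plots. This afternoon fall did not pass the test without plot 2 (adjusted p = 0.113) or plot 3 (adjusted p = 0.0829), nor with scaling by library totals alone (log2 fold change -0.55, adjusted p = 0.0665, edgeR). Between 11:00 and 14:00 no difference passed the test (0.28, SE 0.18, adjusted p = 0.331, edgeR).

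Glyma.19G192800, also of the branching class, had 133, 105, 166 and 241 CPM in plots 1 to 4 at 8:00 and 317, 282, 346 and 401 CPM at 11:00. It had 355, 276, 360 and 289 CPM at 14:00, and 302, 160, 244 and 191 CPM at 17:00. As in the other abundant branching locus, no 11:00 or 14:00 library was as low as an 8:00 library, and the 17:00 libraries overlapped with those of each other time. Its mean was 161 ± 58.4 CPM at 8:00, 337 ± 50.1 CPM at 11:00, 320 ± 43.7 CPM at 14:00 and 224 ± 62.3 CPM at 17:00. Abundance at 11:00 was 2.13-fold that at 8:00 (log2 fold change 1.09, SE 0.20, adjusted p = 0.00148, edgeR), and at 14:00 it was 2.03-fold (1.02, SE 0.20, adjusted p = 0.000941, edgeR), higher in 4 of 4 plots each time. Against 8:00, the 17:00 level differed by 0.49 (SE 0.20), higher in 3 of 4 plots, and did not pass the test (adjusted p = 0.0544, edgeR). It passed with library totals alone (0.78, adjusted p = 0.00712, edgeR) and with limma voom (0.50, adjusted p = 0.0377), and was 0.25 without plot 1 (adjusted p = 0.373, edgeR). The fall was found against 11:00, with a log2 fold change of -0.60 at 17:00 (SE 0.20, adjusted p = 0.0328, edgeR) and lower values in 4 of 4 plots, but the ranges overlapped. That test did not pass with scaling by library totals alone (-0.30, adjusted p = 0.272, edgeR), without the plot term (adjusted p = 0.0865), with a gene-wise linear model (adjusted p = 0.0548), or without plot 2, 3 or 4 (adjusted p = 0.103, 0.0764 and 0.0644, edgeR). Against 14:00 the difference at 17:00 was -0.53 (SE 0.20, adjusted p = 0.0910, edgeR), again with 4 of 4 plots lower, and passed with the DESeq2 test (adjusted p = 0.0451).

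Glyma.08G196700, the third locus of the branching class, gave 53 reads in the 4 libraries of 8:00, 47 at 11:00, 68 at 14:00 and 122 at 17:00. It had 0.826, 0.364, 0.678 and 0.717 CPM in plots 1 to 4 at 8:00, and 0.661, 0.500, 0.574 and 0.650 CPM at 11:00. At 14:00 it had 0.904, 0.536, 0.854 and 0.734 CPM, and at 17:00 1.45, 1.79, 1.23 and 0.776 CPM. All 17:00 libraries lay above all 11:00 libraries, and 3 of them above every other library of the locus, while plot 4 at 17:00 was within the range of 8:00 and 14:00. Counting error was wide at this depth, with an exact (Clopper-Pearson) 95% interval of 0.146 to 0.750 CPM around the lowest value, which came from 7 reads, and of 1.27 to 2.44 CPM around the highest, from 39 reads. These intervals cover counting error only. The locus averaged 1.31 ± 0.424 CPM at 17:00 and 0.646 ± 0.198 CPM at 8:00, a log2 fold change of 1.02 (SE 0.32, adjusted p = 0.0163, edgeR). Against 11:00, where it averaged 0.596 ± 0.0748 CPM, the 17:00 level was higher by 1.12 (SE 0.33, adjusted p = 0.0165, edgeR), and against 14:00 by 0.80, which did not pass the test (SE 0.32, adjusted p = 0.108, edgeR). The test over the 4 time points had an adjusted p of 0.0240 with all plots and of 0.114, 0.210 and 0.121 without plot 1, 2 or 3 (edgeR). The call was thus lost in each of these fits, which also had fewer libraries. The largest log2 fold change was 1.13, 0.79 and 1.08 in them, against 1.12 with all plots, so its size fell only without plot 2. Without plot 2 the 17:00 level was higher than that at 8:00 by 0.58 and than that at 11:00 by 0.79, against 1.02 and 1.12 with it.

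Glyma.03G151200, a debranching locus, had 4.39, 4.27, 2.09 and 4.43 CPM in plots 1 to 4 at 8:00, and 8.23, 11.6, 8.34 and 8.01 CPM at 11:00. It had 10.7, 11.6, 10.2 and 10.5 CPM at 14:00, and 11.1, 11.4, 13.6 and 16.8 CPM at 17:00. Each library of 11:00, 14:00 and 17:00 was above each library of 8:00, and at 14:00 the plots were closest together. The mean was 3.79 ± 1.14 CPM at 8:00, 9.05 ± 1.72 CPM at 11:00, 10.8 ± 0.616 CPM at 14:00 and 13.2 ± 2.63 CPM at 17:00. This was the locus with the largest change of the 5, 3.52-fold at 17:00 against 8:00 (log2 fold change 1.82, SE 0.21, adjusted p = 5.19e-06, edgeR). Most of it was present by 11:00, with 1.26 over 8:00 (SE 0.21, adjusted p = 0.000652, edgeR), and 14:00 exceeded 8:00 by 1.52 (SE 0.21, adjusted p = 4.27e-05, edgeR). All 3 comparisons with 8:00 had the same direction in 4 of 4 plots and passed with each plot left out in turn. The later step, 17:00 against 11:00, was 0.55 (SE 0.20, adjusted p = 0.0422, edgeR) and higher in 3 of 4 plots, and it did not pass without plot 1, 3 or 4 (adjusted p = 0.0907, 0.128 and 0.245), without the plot term (adjusted p = 0.0605), with DESeq2 size factors (adjusted p = 0.0552), with limma voom (adjusted p = 0.0720) or with a gene-wise linear model (adjusted p = 0.103). The low 8:00 value of plot 3, 2.09 CPM from 40 reads, made the fold change of plot 3 the highest of the plots, 6.50-fold at 17:00 against 8:00, where plots 1, 2 and 4 gave 2.53-fold, 2.67-fold and 3.79-fold.

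Glyma.19G153700, the other debranching locus, had 10.7, 14.2, 8.14 and 11.2 CPM in plots 1 to 4 at 8:00 and 14.5, 16.6, 14.3 and 14.7 CPM at 11:00. It had 13.3, 19.1, 18.9 and 18.0 CPM at 14:00, and 18.3, 19.7, 32.4 and 35.0 CPM at 17:00. The 8:00 libraries lay below those of 11:00 and 17:00, and at 17:00 plots 3 and 4 were well above plots 1 and 2. Mean abundance was 11.1 ± 2.46 CPM at 8:00, 15.0 ± 1.06 CPM at 11:00, 17.3 ± 2.73 CPM at 14:00 and 26.3 ± 8.59 CPM at 17:00. The 17:00 level was 2.35-fold that at 8:00 (log2 fold change 1.23, SE 0.20, adjusted p = 0.000158, edgeR), 1.73-fold that at 11:00 (0.79, SE 0.20, adjusted p = 0.00709, edgeR) and 1.51-fold that at 14:00, and the last of these did not pass the test (0.60, SE 0.20, adjusted p = 0.0582, edgeR). All were higher in 4 of 4 plots. The difference from 14:00 passed with library totals alone (adjusted p = 0.0227, edgeR), the DESeq2 test (adjusted p = 0.0433) and a filter of 1 CPM in 4 libraries (adjusted p = 0.0498, edgeR). At 14:00 the locus was above its 8:00 level by 0.64 (SE 0.20, adjusted p = 0.0195, edgeR), and at 11:00 by 0.44, which did not pass (SE 0.20, adjusted p = 0.136, edgeR) although the ranges were apart. Plots 3 and 4 carried the larger changes from 8:00, 3.98-fold and 3.13-fold at 17:00, against 1.70-fold and 1.39-fold in plots 1 and 2. Without plot 3 the change at 17:00 against 8:00 was 0.93 and passed the test (adjusted p = 0.00569, edgeR) but not the fold threshold. The adjusted p of 17:00 against 11:00 became 0.0657 without plot 3 and 0.0713 without plot 4, and that of 14:00 against 8:00 became 0.138 and 0.0616 (edgeR).

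**Figure D2:**
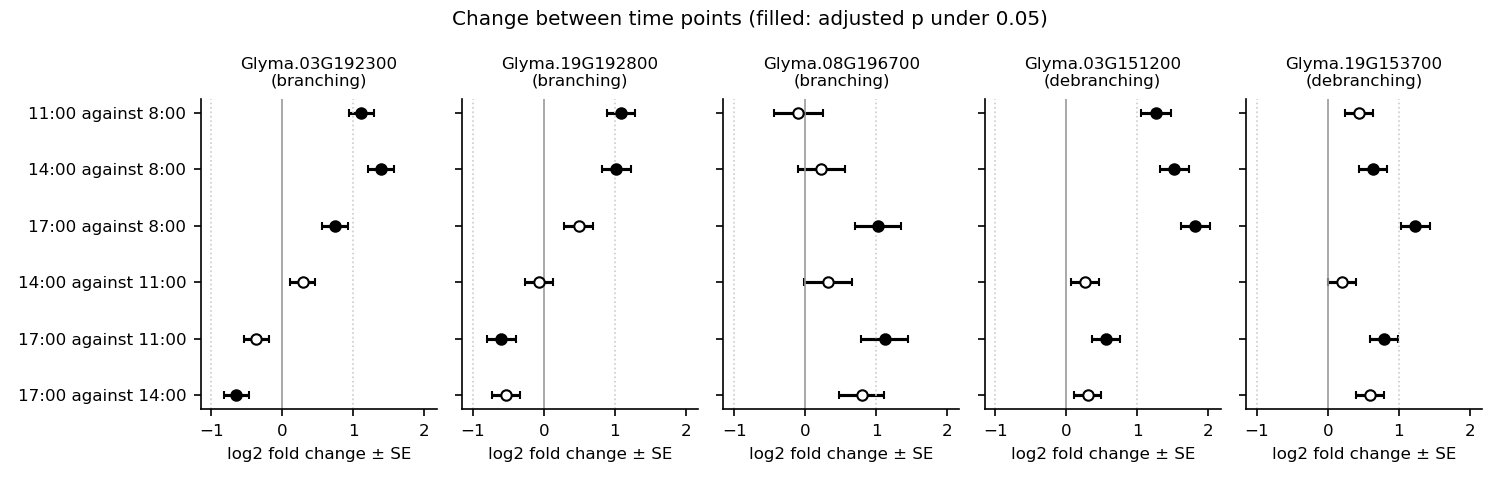
Log2 fold change ± SE (horizontal axis) of each locus in the 6 comparisons of time points, the later over the earlier, from edgeR with plot in the model. Filled points had an adjusted p under 0.05, and dotted lines mark a log2 fold change of 1 in size. Glyma.03G192300 and Glyma.19G192800 lie to the left of 0 in the comparisons of 17:00 with 11:00 and 14:00, and both debranching loci and Glyma.08G196700 lie to the right.

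Counted over the class, the morning step, 11:00 against 8:00, called 3 of 5 loci higher, the abundant branching pair and Glyma.03G151200, against 5.46% of all genes tested. The same 3 loci were called higher at 14:00 than at 8:00, against 12.2% of all genes. The call of Glyma.19G192800 at 14:00 rested on the fold threshold, with log2 fold changes of 0.90, 0.90 and 0.96 without plot 1, 2 or 3, 0.99 without the plot term and 0.98 with DESeq2 size factors or the DESeq2 test, and at 11:00 it was 0.99 without plot 2. At 17:00 against 8:00 the loci called higher were again 3 of 5, both debranching loci and Glyma.08G196700, against 15.6% of all genes. Without plot 3 this last count was 1, Glyma.03G151200, and with library totals alone it was 4. The call of Glyma.08G196700 was lost without plot 1, 2 or 3 (adjusted p = 0.0584, 0.156 and 0.0716, edgeR). It also fell short of the fold threshold with DESeq2 size factors or the DESeq2 test (0.98 each), limma voom (0.94) and a gene-wise linear model (0.97). In 14:00 against 11:00 no locus was called, with 3.31% of all genes called higher, and none had an unadjusted p under 0.05. At 17:00 against 11:00 Glyma.08G196700 alone was called higher, against 8.84% of genes, a count that was 0 without plot 1, 2 or 3. By the adjusted p alone 3 loci rose in that comparison, both debranching loci and Glyma.08G196700, and Glyma.19G192800 fell, against 17.5% and 15.9% of all genes tested. At 17:00 against 14:00, 0 loci were called, with 3.08% of genes called higher, and by the adjusted p alone Glyma.03G192300 fell, as did 8.2% of all genes. The unadjusted p in that comparison was under 0.05 for Glyma.19G192800 (0.0183), Glyma.08G196700 (0.0241) and Glyma.19G153700 (0.00920) as well. The median log2 fold change of the 5 loci was 1.09 at 11:00 against 8:00, 1.02 at 14:00 against 8:00 and 1.02 at 17:00 against 8:00, where the median over all genes tested was -0.01, 0.01 and 0.06. Since the study had called these loci in the same libraries, larger changes than in the median gene follow from how they were chosen. These comparisons share libraries and are not independent of each other.

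In the morning and the late afternoon steps the estimates of the loci differed in sign, but many of them did not pass the test. Glyma.03G192300 and Glyma.19G192800 had an estimate above 0 at 11:00 against 8:00 and below 0 at 17:00 against 14:00, as did 8330 of all genes tested (23.1%). Glyma.03G151200 and Glyma.19G153700 had an estimate above 0 in both steps, as did 9479 genes (26.3%). Glyma.08G196700 had -0.10 in the morning step (SE 0.34) and 0.80 in the afternoon step (SE 0.32).

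**Figure D3:**
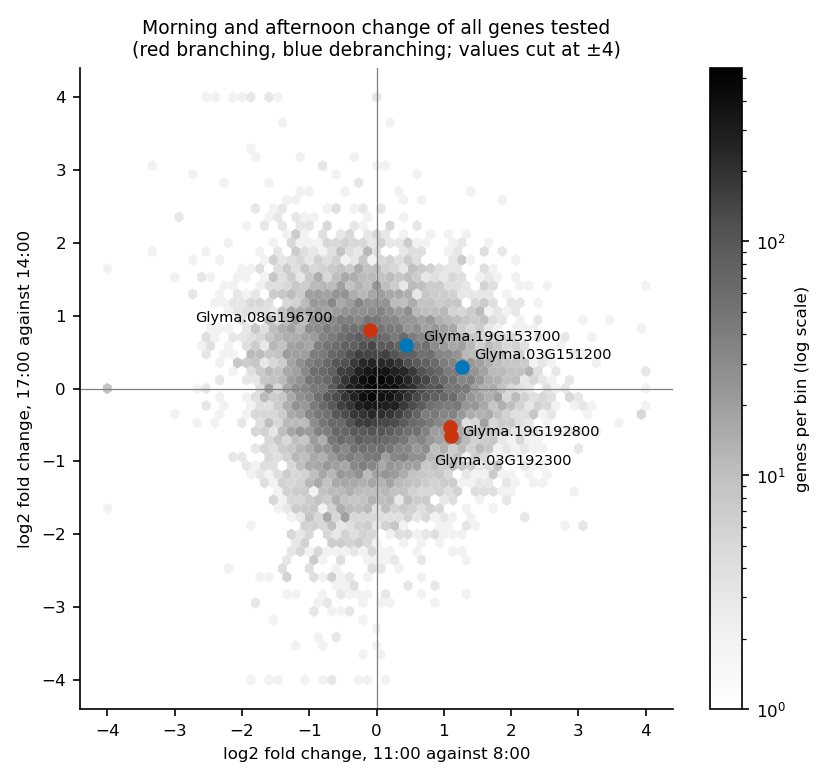
Log2 fold change at 17:00 against 14:00 (vertical) over that at 11:00 against 8:00 (horizontal) for all 36059 genes tested, as the number of genes per hexagon (grey, log scale), with the branching loci in red and the debranching loci in blue. The abundant branching pair lies at a morning change of 1.11 and 1.09 with an afternoon change of -0.65 and -0.53. The other loci have an afternoon estimate above 0, which passed the test in none of them.

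Whether the loci differed in time course was tested directly on the log2 ratio of the reads of 2 loci within a library, which does not depend on library scaling. The size of a difference is given as the range of the 4 time point means of that ratio. The statistic of the exact permutation test was the sum of squares between these means. The test rearranged the time points within each plot (13824 arrangements, smallest possible p 7.23e-05), and p was adjusted over the 10 pairs of loci (Benjamini-Hochberg). The ratio differed with time in 8 of 10 pairs. The mean of all 4 ratios of an abundant branching locus to a debranching locus was lowest at 17:00, with a range of 1.09 on the log2 scale for Glyma.03G192300 over Glyma.03G151200 (adjusted p = 0.0289, exact permutation test) and of 1.22 for Glyma.03G192300 over Glyma.19G153700 (adjusted p = 0.0392, exact permutation test). For Glyma.19G192800 the range was 1.33 over Glyma.03G151200 (adjusted p = 0.00868, exact permutation test) and 1.37 over Glyma.19G153700 (adjusted p = 0.0469, exact permutation test). The ratios over Glyma.03G151200 were lowest at 17:00 in 4 of 4 plots, whereas those over Glyma.19G153700 were lowest at 17:00 in plots 3 and 4 and at 8:00 in plots 1 and 2. Per 100 reads of the branching pair, there were 5.72 ± 2.64 debranching reads at 8:00, 4.09 ± 0.948 at 11:00, 4.44 ± 0.712 at 14:00 and 9.69 ± 3.52 at 17:00 (SD, n = 4), and plots 3 and 4 carried the higher mean at 17:00. Plots 3 and 4 had 9.98 and 13.9 debranching reads per 100 at 17:00 and 3.60 and 3.72 at 8:00, plot 2 had 9.48 and 9.17, and plot 1 went the other way, with 5.34 at 17:00 and 6.39 at 8:00. Within the branching class, Glyma.08G196700 differed in time course from both abundant loci, by 1.41 against Glyma.03G192300 (adjusted p = 0.00868) and by 1.65 against Glyma.19G192800 (adjusted p = 0.00470, exact permutation tests). Between Glyma.08G196700 and the debranching loci no difference passed (1.35, adjusted p = 0.0512 for Glyma.03G151200, and 0.53, adjusted p = 0.698 for Glyma.19G153700, exact permutation tests). None of the 8 ratios that passed did so without plot 3 (adjusted p between 0.0564 and 0.178) or without plot 4 (between 0.0694 and 0.131), where 3 plots remained in the exact permutation test, and 5 did so without plot 1 or without plot 2.

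Within the abundant branching pair and within the debranching pair, the loci also differed from each other. Reads of Glyma.03G192300 per read of Glyma.19G192800 were 0.774, 0.908, 0.710 and 0.742 in plots 1 to 4 at 8:00, 0.739, 0.854, 0.769 and 0.788 at 11:00, 0.879, 1.16, 0.958 and 1.03 at 14:00, and 0.822, 1.05, 0.889 and 0.945 at 17:00. In every plot the 14:00 ratio was the highest of its day and both morning ratios were below both afternoon ratios. The range of the time point means was 0.36 on the log2 scale (adjusted p = 0.00434, exact permutation test). The debranching pair differed by more. Reads of Glyma.03G151200 per read of Glyma.19G153700 were 0.409, 0.301, 0.256 and 0.396 at 8:00, 0.569, 0.701, 0.584 and 0.547 at 11:00, 0.802, 0.608, 0.540 and 0.586 at 14:00, and 0.606, 0.580, 0.419 and 0.480 at 17:00. The 8:00 ratio was the lowest in each plot, with a range of the means of 0.89 on the log2 scale (adjusted p = 0.00868, exact permutation test).

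**Figure D4:**
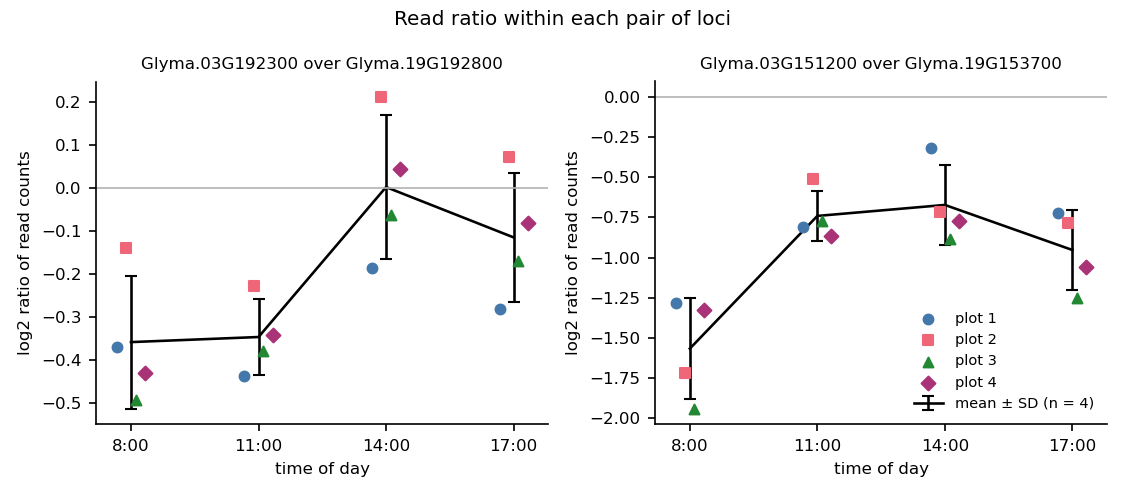
Log2 ratio of read counts within a library (vertical) by time of day for Glyma.03G192300 over Glyma.19G192800 (left) and Glyma.03G151200 over Glyma.19G153700 (right). Symbols are the 4 plots, and the line and bars are the mean ± SD (n = 4). The branching ratio is higher in the afternoon than in the morning, and the debranching ratio is lowest at 8:00, at a mean of -1.57.

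Plots were compared in the same model. Between plots 0 of the 5 loci were called, against 6.31% of all genes tested, and the adjusted p lay between 0.216 (Glyma.19G192800) and 0.775 (Glyma.08G196700, edgeR). In that test the unadjusted p was under 0.05 for 0 of the 5 loci, the lowest being 0.0692. The plots nevertheless ordered the branching pair alike at 8:00, where Glyma.03G192300 and Glyma.19G192800 were both highest in plot 4 and lowest in plot 2. In plot 4 the pair changed least, with 14:00 at 1.67-fold its 8:00 level for Glyma.03G192300 and 1.20-fold for Glyma.19G192800, against between 2.92-fold and 3.34-fold and between 2.17-fold and 2.66-fold in plots 1 to 3. The highest value of both loci in plot 4 was at 11:00, and in plots 1 and 3 it was at 14:00. At 17:00 in plot 4 Glyma.19G192800 was below its 8:00 level (0.794-fold), the single plot in which that was so. With 1 library per plot and time, a difference between plots in the time course could not be tested. In the debranching loci plot 4 had the highest value at 17:00, 16.8 CPM for Glyma.03G151200 and 35.0 CPM for Glyma.19G153700. Without plot 4, Glyma.19G192800 was higher at 17:00 than at 8:00 by 0.78 and passed the test (adjusted p = 0.00288, edgeR).

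**Figure D5:**
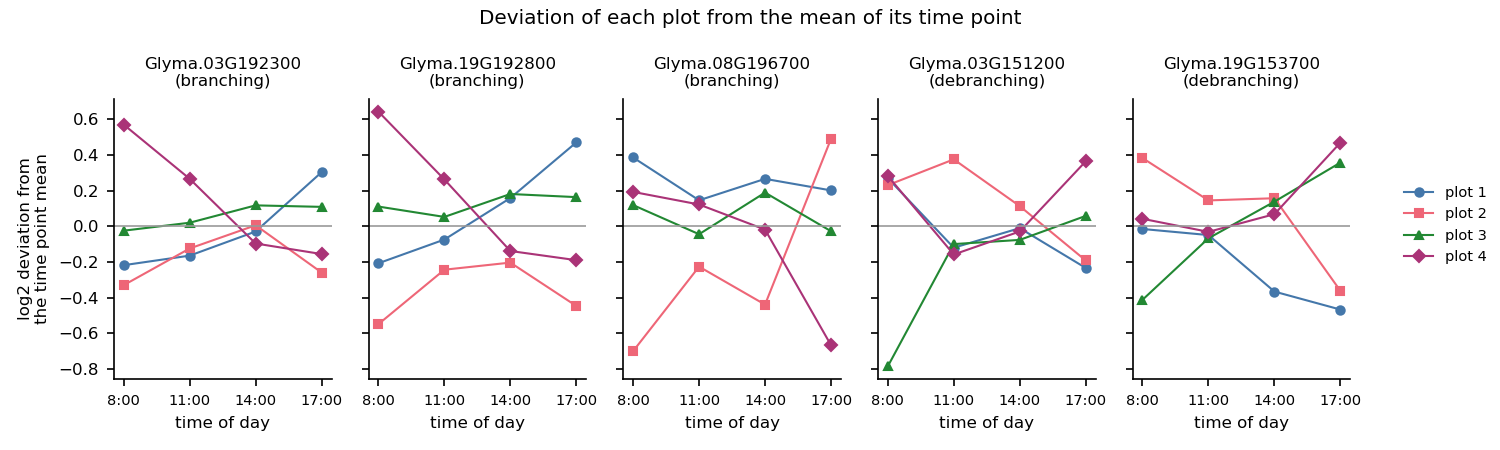
Deviation of each plot from the mean of its time point (log2 scale, vertical) by time of day for the 5 loci, 1 line per plot. Plot 4 is 0.57 and 0.64 above the mean for the branching pair at 8:00 and below the mean at 14:00 and 17:00, and plot 3 stands at -0.78 for Glyma.03G151200 at 8:00.

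Likeness of the profiles was described by Pearson's r of log2 CPM over the 16 libraries, across genes averaging at least 1 CPM. The libraries share time points and plots, so r is a description and has no p. Of 28598 other genes, the most like Glyma.19G192800 was Glyma.03G192300 (r = 0.939), followed by Glyma.08G361900 (0.938) and Glyma.01G106600 (0.917). For Glyma.03G192300 the order was Glyma.08G152400 (0.947), Glyma.19G074600 (0.947) and Glyma.08G027700 (0.944), and Glyma.19G192800 had rank 6. The debranching loci were less alike each other (r = 0.854), and Glyma.03G151200 had rank 342 in likeness to Glyma.19G153700. The genes most like Glyma.03G151200 were Glyma.08G188700 (0.979), Glyma.06G111000 (0.974) and Glyma.18G036300 (0.974), and those most like Glyma.19G153700 were Glyma.15G174100 (0.973), Glyma.12G001700 (0.950) and Glyma.03G205600 (0.946). For Glyma.08G196700 they were Glyma.08G146000 (0.900), Glyma.20G190100 (0.898) and Glyma.09G007300 (0.889), and its r with the abundant branching loci was 0.11 and 0.06. The annotations used here name none of these other genes.

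A single further locus of starch metabolism was annotated in the sources used here, Glyma.01G203400, whose best protein match is a beta-amylase. Beta-amylases release maltose from chain ends, and in leaves they act in the breakdown of starch. It had 93.2, 41.5, 31.2 and 118 CPM in plots 1 to 4 at 8:00 and 80.4, 29.6, 31.2 and 33.9 CPM at 11:00. It had 149, 13.9, 32.1 and 59.8 CPM at 14:00, and 241, 69.3, 153 and 394 CPM at 17:00. In every plot the 17:00 value was the highest of the day, but the plots differed so widely that no time point was free of overlap with another. The 17:00 level was higher than that at 8:00 by 1.56 on the log2 scale (SE 0.37, adjusted p = 0.00309, edgeR), than that at 11:00 by 2.16 (SE 0.39, adjusted p = 0.000642, edgeR) and than that at 14:00 by 1.96 (SE 0.38, adjusted p = 0.00351, edgeR). Unlike the branching and debranching loci, it was also called between plots (adjusted p = 0.0115, edgeR). Like the debranching loci it had its highest mean at 17:00, and its change by 11:00 did not pass the test (-0.60, SE 0.37, adjusted p = 0.270, edgeR). At that time Glyma.03G151200 had risen by 1.26, and the change of Glyma.19G153700, 0.44, did not pass either.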

How the data were processed

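Per the study's methods, the authors isolated total RNA, prepared TruSeq libraries, used Trimmomatic for trimming, TopHat for alignment to the Williams 82 genome and HTSeq-count for counting, and the submitters' processing notes also name CASAVA 1.8.2. The deposited table holds raw, unscaled counts of each gene in 1 column per library, and 0 columns were left unmatched. Counts were fitted in R 4.3.3 with edgeR 4.0.16, with TMM scaling and time point and plot as terms, over the 36059 genes with at least 8 counts in any library. Each SE is approximate, obtained by dividing the size of the log2 fold change by the root of F. Replicate numbers pair the samples, since the labels' treatment protocol makes each replicate a plot sampled on its own day. Deviations from time point means correlated with a median r of 0.24 over 24 pairs of libraries of the same plot and -0.07 over 72 pairs of different plots, and 15 of 16 libraries correlated best with their own plot. No library was a copy of another of its time point (lowest chi-square per gene 17.7). Differences in time course used reads plus a prior count of 1. Tests were checked on simulated data. Alternatives were DESeq2 1.42.0 size factors and test, limma 3.58.1 voom, a gene-wise linear model, library totals, no plot block, other filters and prior counts, no fold threshold, and each plot left out. The named genes were the loci, starch loci annotated in the sources used, and the 3 genes with the highest r to each locus. The loci, lists and tests were chosen with earlier results of these data known. The reference table matched 0 of the locus identifiers, so other pathway genes, leaf markers, sequences and promoter motifs were not analysed here.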

Additional observations from a re-analysis of the deposited data

Results flagged for a closer look

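In 4 of 32 groups of 4 libraries examined, a library stood far from the other plots of its time point (Dixon's ratio above 0.829), where chance marks about 1 in 20. Glyma.03G151200 was lowest in plot 3 at 8:00, at 2.09 CPM, with the other plots between 4.27 and 4.43 CPM. The same debranching locus was highest in plot 2 at 11:00, at 11.6 CPM, where the other plots had between 8.01 and 8.34 CPM. In that same library, plot 2 at 11:00, Glyma.19G153700 was also highest, at 16.6 CPM, with the other plots between 14.3 and 14.7 CPM. That library had a TMM factor of 0.803, against between 0.894 and 1.08 in the other 11:00 libraries, and a lower factor raises CPM. Glyma.19G153700 had 298 of 22424939 reads there and 406 of 25691784 in plot 4, so by library totals alone plot 4 was the highest. Glyma.03G151200 had 209 reads in plot 2, 222 in plot 4, 112 of 14968570 in plot 1 and 160 of 21456712 in plot 3. By library totals alone plot 2 was still its highest, but plot 4 lay nearer to plot 2 than to plots 1 and 3. Neither flag of plot 2 therefore holds without TMM scaling. Glyma.01G203400, the beta-amylase match, was highest in plot 1 at 11:00, at 80.4 CPM, against between 29.6 and 33.9 CPM elsewhere.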

How the results depend on the processing

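The alternatives left 214 of 256 summary values (counts of genes or loci and ratios between loci) and 380 of 420 values of single loci on their side of the threshold and within 1.5 times any count. In single loci, comparisons between time points were judged by the adjusted p alone, so a call lost only on fold size was not counted as moved. Dropping the fold threshold gave 19626 genes over the 4 time points, 8484 at 11:00 against 8:00, 15676 at 14:00 against 8:00, 18350 at 17:00 against 8:00, 5066 at 14:00 against 11:00, 12017 at 17:00 against 11:00 and 5259 at 17:00 against 14:00. Loci called at 17:00 against 11:00 numbered 2 with library totals alone, and with a replicate left out between 0 and 1. Loci called over the 4 time points then numbered between 3 and 5, and at 17:00 against 8:00 between 1 and 3. Genes called between plots numbered 885 with the gene-wise linear model and between 351 and 2075 with a replicate left out. The change of Glyma.19G192800 at 14:00 against 11:00, which passed no test, changed sign with library totals alone (0.13) and ranged between -0.14 and 0.057 with a replicate left out.

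With a replicate left out, the range of the log2 ratio lay between 0.34 and 0.42 for Glyma.03G192300 over Glyma.19G192800, 1.28 and 1.58 over Glyma.08G196700, 0.82 and 1.43 over Glyma.03G151200, and 1.07 and 1.43 over Glyma.19G153700. For Glyma.19G192800 it lay between 1.34 and 1.81 over Glyma.08G196700, 1.03 and 1.73 over Glyma.03G151200, and 1.05 and 1.69 over Glyma.19G153700, and for Glyma.03G151200 over Glyma.19G153700 between 0.84 and 1.01. That of Glyma.08G196700 over Glyma.03G151200 passed the exact permutation test with a prior count of 4 (1.32, adjusted p = 0.0413). Without the replicate block, where values were shuffled at random across plots, the same ratio passed as well (1.35, adjusted p = 0.0282, random permutation test).

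Without the replicate block the fit called 11090 genes over the 4 time points, and Glyma.19G192800 (-0.59, adjusted p = 0.0865) and Glyma.03G151200 (0.55, adjusted p = 0.0605, edgeR) no longer passed at 17:00 against 11:00, and Glyma.19G192800 at 14:00 against 8:00 passed the test but not the fold threshold (0.99). No other locus call by edgeR changed. The causes were not tested. Depth limits Glyma.08G196700 most, with between 7 and 39 reads per library.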
